A study of Homo sapiens with 2 samples.

Results

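MYC, its partner MAX, 4 further proteins that pair with MAX (MXI1, MXD1, MXD4 and MNT) and ODC1, an enzyme gene that MYC is known to switch on, are described here across every condition of a single-cell experiment. The 7 genes were chosen by name, and all 7 are among the 16387 genes listed in both count tables and among the 11147 genes tested. MCF10A is an immortalised, non-tumorigenic breast epithelial cell line that needs epidermal growth factor (EGF) to proliferate. Cells were measured without EGF (0 h, called unstimulated here) and after 15 h, 20 h and 30 h of EGF alone. In further cultures either MEK, which phosphorylates and switches on ERK, or PI3K, whose lipid product recruits AKT, was inhibited from 15 h after EGF, and cells were taken at 20 h and 30 h of EGF, 5 h and 15 h after the inhibitor. No source used here gives the compounds or their doses, and the 8 conditions in the sample annotation include none with both. Each of the 2 biological replicates is 1 pooled library in which sample tags mark the 8 conditions, so n = 2 for each condition.

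MYC is a transcription factor of the basic helix-loop-helix family that binds DNA only as a pair with MAX, most often at the E-box, and raises genes of ribosome production, nucleotide synthesis and growth. MXI1, MXD1, MXD4 and MNT compete for the same MAX and the same sites, and their pairs with MAX recruit corepressors, so they are regarded as counterparts of MYC that are often abundant in resting or differentiating cells. ODC1, ornithine decarboxylase, makes putrescine in the committed step of polyamine synthesis and is a textbook E-box target of MYC. In epithelial cells EGF acts on MYC through ERK, and PI3K through AKT keeps forkhead (FOXO) factors out of the nucleus. MXI1 is known as a gene that FOXO factors raise.

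The tables held 2616 cells with 33089090 UMIs (unique molecular identifiers, each a counted transcript) in library 1 and 2221 cells with 28542571 UMIs in library 2. Sums over the cells of a library and condition ran from 213208 to 8508781 UMIs, and no cell barcode occurred in both libraries. The unstimulated cells of library 2 stand apart, because they are 29 cells only. The cells of library 2 at 15 h of EGF are few as well, 64 cells with 635354 UMIs. Of 10 ERK reporter genes, 9 at 20 h and 10 at 30 h were called lower under MEK inhibition, and genes that report FOXO activity were higher with the PI3K inhibitor in 7 of 12 and 8 of 12 cases and with the MEK inhibitor in 3 of 12 and 9 of 12, with IRS2 lower at 20 h (log2 fold change -0.996). Over all genes the share called higher was 11.4% and 19.7% with the PI3K inhibitor and 4.8% and 18.9% with the MEK inhibitor, and the share called lower with the MEK inhibitor was 7.15% and 19%. The FOXO counts of 3 and 9 became 1 and 5 in cells called G1 by cell cycle genes, and 0 and 5 when each cell had equal weight. In cells called S or G2/M the 7 with the PI3K inhibitor became 4 and the 3 with the MEK inhibitor became 1. The 3 also fell without library 1 of EGF alone at 20 h or either MEK inhibitor sum at 20 h. The call of IRS2 was lost without the library as a block in the fit, in G1-called cells and without library 2 of EGF alone at 20 h. Basal epithelial markers made up 12407 to 27496 CPM (UMIs on a per-million scale) in each sum, while the blood marker found in both tables stayed at or below 0.681 and the endothelial one at or below 2.67. The 2 of 6 fibroblast markers found in both tables, COL1A1 and DCN, moved with the conditions: they summed to 96.3 and 93.8 CPM in unstimulated cells and to 17.5 and 7.87 CPM at 15 h of EGF. At 30 h they summed to 13.3 and 9.19 CPM in EGF-only cells, 49.0 and 23.6 CPM under MEK inhibition and 16.2 and 6.96 CPM under PI3K inhibition, and at 20 h to 14.4 and 11.2, 28.9 and 20.0, and 23.6 and 17.5 CPM. Their part in the results was not tested.

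Promoter sequences bear on these genes because the E-box (CACGTG, which reads the same on both strands) is the site that MYC-MAX and the competing pairs share, and because the forkhead core (GTAAACA, or TGTTTAC on the other strand) is the site that FOXO factors read. RefSeq windows on GRCh38.p14, from 250 bases before to 50 after each annotated transcript start, were searched on both strands for MAX, MXI1, MXD1, MXD4, MNT and ODC1. The E-box occurred in 2548 of 35116 such windows (7.26%) and the forkhead core in 1202 (3.42%). ODC1 held 2 E-boxes in the window of 1 of its 2 starts. MXD4 and MNT each held 1 E-box, 238 and 193 bases before the start. MXI1 held a forkhead core in the windows of 2 of its 3 starts, 151 and 2 bases before them, and no E-box. Neither motif was found in the windows of MAX (2 starts), MXD1 (1 start) or the other ODC1 start. The stretches around the matches are given 5′ to 3′ on the gene's strand, with the matched letters in capitals.
ODC1, chr2:10448001-10448066, minus strand: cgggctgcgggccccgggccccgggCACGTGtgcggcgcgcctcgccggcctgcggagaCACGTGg
MXD4, chr4:2262317-2262359, minus strand: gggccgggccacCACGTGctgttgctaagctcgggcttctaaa
MNT, chr17:2401223-2401278, minus strand: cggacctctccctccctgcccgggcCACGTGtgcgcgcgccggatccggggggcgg
MXI1, chr10:110210055-110210111, plus strand: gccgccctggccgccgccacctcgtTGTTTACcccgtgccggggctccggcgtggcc
MXI1, chr10:110225969-110226007, plus strand: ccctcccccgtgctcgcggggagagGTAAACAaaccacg
The ODC1 stretch lies in an intron of the 2 transcripts that span it in GENCODE v29, around the RefSeq start at 10448012, with its E-boxes beginning 29 bases before and 5 bases after that start. The MXD4 and MNT stretches lie upstream of every annotated transcript. The first MXI1 stretch holds no exon base and lies within 2 transcripts, and the other has 15 bases in an exon. These matches are letters in a window and do not show binding in these cells.

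Under MEK inhibition MYC and ODC1 were below their levels in EGF alone at both times. With the PI3K inhibitor at 30 h MYC was higher, ODC1 was not called, and the MAX partners MXD4, MXI1 and MNT were higher. Against EGF alone at 20 h, 3 of the 7 genes were called with the MEK inhibitor, all lower (MYC, ODC1 and MXI1), where 11.9% of all tested genes were called in either direction. At 30 h it was again 3 of 7, with MYC and ODC1 lower and MXD4 higher, against 37.8% of all genes. The PI3K inhibitor gave 2 of 7 at 20 h, both higher (MXD4 and MXD1), against 23.4% of all genes, and 4 of 7 at 30 h, all higher (MXD4, MXI1, MNT and MYC), against 39.7%. A gene is called when its adjusted p in edgeR's quasi-likelihood test is under 0.05, and the comparisons with the 2 inhibitors at a time share the same EGF sums. MAX was not called in any of these 4 comparisons.

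**Figure D1:**
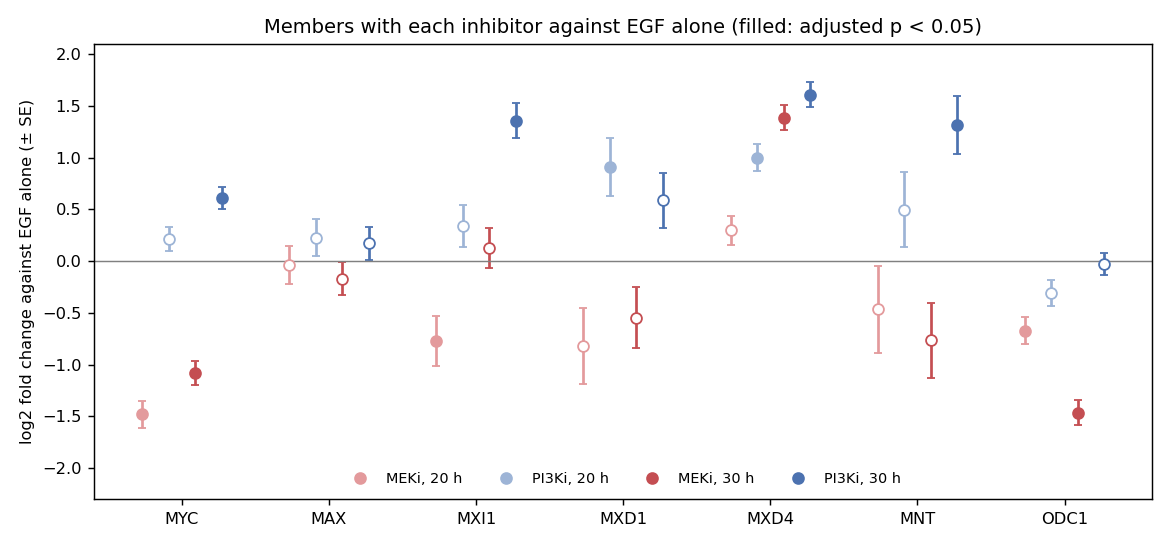
Log2 fold change against EGF alone (y axis, with SE) of each of the 7 genes (x axis) for the MEK inhibitor (MEKi, red) and the PI3K inhibitor (PI3Ki, blue) at 20 h (pale) and 30 h (dark). Filled points passed the test: MYC and ODC1 lie below zero with the MEK inhibitor at both times, and MXD4 reaches 1.61 with the PI3K inhibitor at 30 h.

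MYC lies on chromosome 8 of GRCh38 at 127735434 to 127741434 on the plus strand in GENCODE v29, and 11515 of its UMIs were counted in all. Levels are the CPM of each sum, scaled between sums by TMM, a trimmed mean of gene ratios. Unstimulated cells held 169.5 and 203 CPM of MYC in libraries 1 and 2, and cells at 15 h of EGF held 237 and 247 CPM. With EGF alone the levels were 187 and 184 CPM at 20 h and 186 and 211 CPM at 30 h. Both libraries were thus higher at 15 h than at any other time of EGF alone. The MEK inhibitor left 44.7 and 89.0 CPM at 20 h and 75.1 and 111 CPM at 30 h, below every other condition in both libraries. The PI3K inhibitor gave 209.7 and 225 CPM at 20 h and 282 and 324 CPM at 30 h, the highest levels of MYC in the series. In the order of the means PI3K inhibitor at 30 h came first and EGF at 15 h second, each apart from its neighbour. The ranges of PI3K inhibitor at 20 h, EGF at 30 h, unstimulated and EGF at 20 h each overlapped the next in that order, and so did the ranges of the 2 MEK inhibitor conditions, which stood apart from all others.

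**Figure D2:**
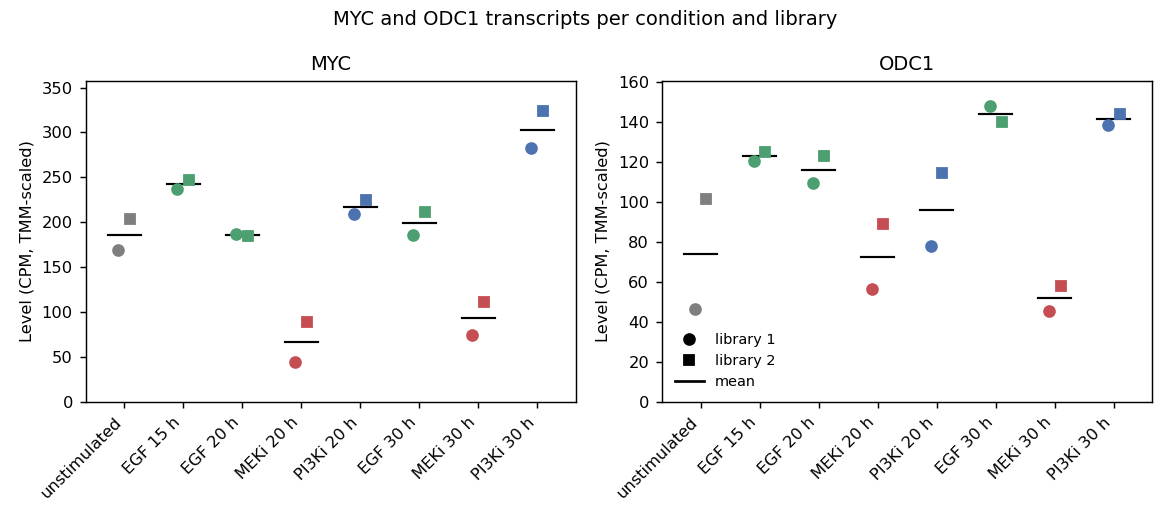
Level of MYC (left) and ODC1 (right) in CPM with TMM scaling (y axes, from 0) in each condition (x axis), with library 1 as circles, library 2 as squares and the mean as a bar. MYC with the MEK inhibitor sits at 44.7 to 111 CPM, below every other condition, and ODC1 with the MEK inhibitor at 30 h sits at 45.7 and 57.8 CPM.

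MEK inhibition gave MYC a log2 fold change of -1.48 ± 0.13 against EGF alone at 20 h (fold change 0.358, SE, adjusted p = 1.53e-12). The log2 difference was -2.06 in library 1 and -1.05 in library 2. At 30 h the log2 fold change was -1.08 ± 0.12 (fold change 0.473, adjusted p = 5.69e-11), with -1.30 and -0.92 in the libraries. The change of this effect from 20 h to 30 h, 0.40 with a 95% interval of 0.05 to 0.75, did not pass the test (adjusted p = 0.196). For PI3K inhibition at 20 h the difference was 0.22, with a 95% interval of -0.01 to 0.45, and was not called. At 30 h MYC rose by 0.61 ± 0.11 on the log2 scale (fold change 1.53, adjusted p = 6.9e-06), by 0.60 in library 1 and 0.61 in library 2. This rise was not called without the library as a block (adjusted p = 0.0676) or when each cell had equal weight (log2 fold change 0.37, adjusted p = 0.147).

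At both times and in both libraries, shares of cells with at least 1 MYC UMI were lower under MEK inhibition than with EGF alone. With the PI3K inhibitor they were not higher in every case, as the sums were. Cells were thinned to 5000 UMIs each, which keeps 4701 of the 4837 cells, and the intervals are exact binomial and cover counting error only. In EGF-only cells at 30 h 55.2% (95% interval 48.7 to 61.6) of cells in library 1 and 66.0% (60.7 to 71.0) in library 2 had a MYC UMI. With the MEK inhibitor it was 25.9% (21.3 to 30.9) and 42.1% (38.1 to 46.2), and under PI3K inhibition 65.0% (59.9 to 69.8) and 77.7% (73.8 to 81.3). At 20 h the shares were 55.0% and 56.1% with EGF alone, 22.0% and 36.7% under MEK inhibition and 54.9% and 63.4% under PI3K inhibition. Without thinning the shares at 30 h were 81.2% and 92.2% with EGF alone, 48.6% and 71.6% under MEK inhibition and 86.4% and 91.1% under PI3K inhibition, at median depths of 16000 and 15371, 12216 and 13505.5, and 11952 and 11650 UMIs. All cells are of 1 line, so no cell type that lacks MYC was at hand to set a background from free RNA.

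Cell cycle phase, called from S and G2/M genes, moved with the conditions, so MYC was also read within phase calls. In libraries 1 and 2 the share of cells called G1 at 30 h was 28.03% and 11.5% in EGF-only cells, 65.8% and 36.1% under MEK inhibition and 89.3% and 79.1% with the PI3K inhibitor, and for 13.6% of the cells the call was within 0.05 of the boundary between phases. MYC in cells called G1 at 30 h stood at 203 and 235 CPM (without TMM scaling) with EGF alone, 66.8 and 120.3 under MEK inhibition and 246 and 312 under PI3K inhibition. The fit on G1-called cells alone gave log2 fold changes of -1.52 at 20 h and -1.09 at 30 h for the MEK inhibitor, and the fit on S- or G2/M-called cells gave -1.43 and -1.11, each called. For the PI3K inhibitor at 30 h the values were 0.46 and 0.55, both called. MYC was therefore lower with the MEK inhibitor within either kind of call by about as much as over all cells.

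**Figure D3:**
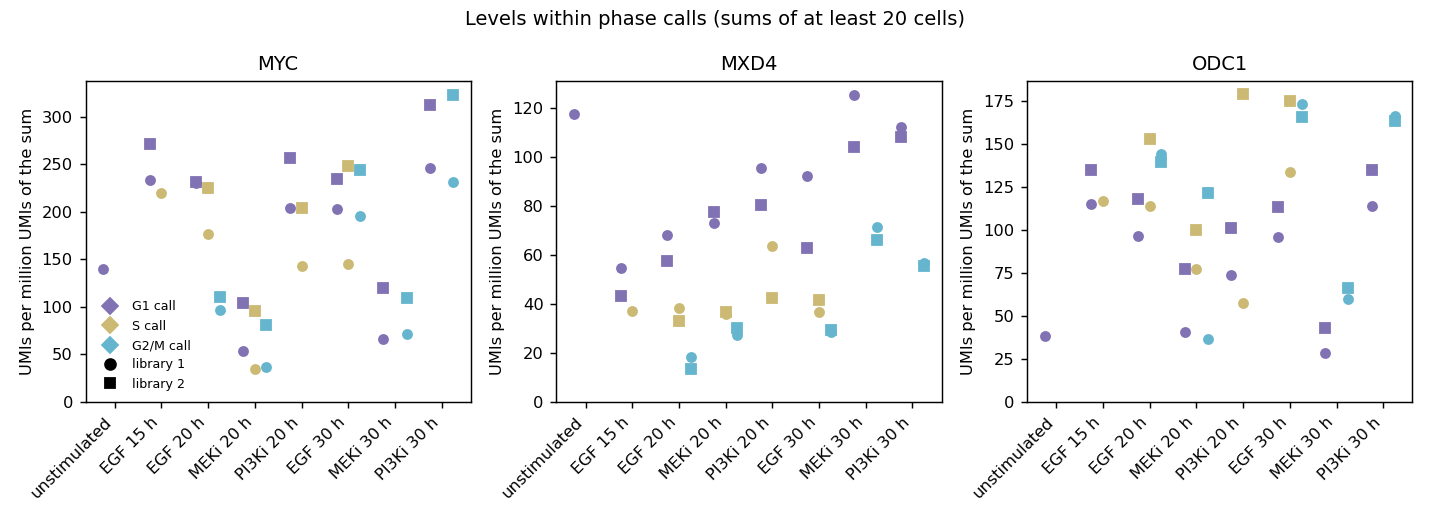
Level of MYC, MXD4 and ODC1 in CPM without TMM scaling (y axes, from 0) in sums of at least 20 cells called G1, S or G2/M (colours) by condition (x axis), library 1 as circles and library 2 as squares. MXD4 is higher in the G1 sum than in the S or G2/M sum of the same library and condition in every pair shown, 9 of 9 and 10 of 10, while ODC1 is higher in G1 in 1 of 9 and 1 of 10.

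ODC1 lies on chromosome 2 at 10439968 to 10448504 on the minus strand, holds the snoRNA SNORA80B within it, and gave 6399 UMIs. Unstimulated cells held 46.4 CPM in library 1 and 102 CPM in library 2, the latter from 23 UMIs. After EGF the level was 120.3 and 125 CPM at 15 h, 109 and 123 CPM at 20 h and 148 and 140.0 CPM at 30 h. The libraries lay close together at each time of EGF. Under MEK inhibition ODC1 stood at 56.3 and 88.7 CPM at 20 h and at 45.7 and 57.8 CPM at 30 h. PI3K inhibition left it at 77.9 and 114 CPM at 20 h and at 138 and 144 CPM at 30 h. EGF at 30 h and PI3K inhibitor at 30 h led the order with overlapping ranges, apart from EGF at 15 h, and from there down to the MEK inhibitor at 30 h each range overlapped the next.

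The fall of ODC1 with the MEK inhibitor was larger at 30 h than at 20 h. It came to -0.67 ± 0.13 at 20 h (log2 fold change with SE, fold change 0.626, adjusted p = 0.000158), with -0.95 in library 1 and -0.47 in library 2. At 30 h it was -1.47 ± 0.12 (fold change 0.362, adjusted p = 1.48e-14), with -1.68 and -1.27. The difference of the 2 effects was -0.79 ± 0.18 (adjusted p = 0.00252), in a test that called 2 of the 7 genes and 5.58% of all genes. The call at 20 h was lost without the library as a block (adjusted p = 0.161), with equal weight per cell (adjusted p = 0.219) and without the MEK inhibitor sum of library 1 (log2 fold change -0.48, adjusted p = 0.05), and the call of the difference was lost without the MEK inhibitor sum of library 2 at 20 h (-0.52, adjusted p = 0.237), without the block (adjusted p = 0.464), with equal weight per cell (0.4), in G1-called cells (0.391) and in DESeq2 (0.0519). Under PI3K inhibition the log2 fold change of ODC1 was -0.31 at 20 h (95% interval -0.56 to -0.05, adjusted p = 0.0695) and -0.03 at 30 h (-0.25 to 0.19), neither called. On library totals without TMM the 20 h value was -0.45 and passed the test.

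Within G1 calls ODC1 at 30 h stood at 95.6 and 113 CPM without TMM scaling with EGF alone, 28.4 and 43.0 under MEK inhibition and 114 and 135 under PI3K inhibition. The MEK inhibitor effect at 30 h was -1.40 in the fit on G1-called cells and -1.27 in that on S- or G2/M-called cells, both called. For the PI3K inhibitor at 30 h the same fits gave 0.36 and 0.09, neither called. ODC1 UMIs were seen, at 5000 UMIs per cell, in 43.1% and 53.3% of cells with EGF alone at 30 h, in 14.9% and 23.5% with the MEK inhibitor and in 41.4% and 47.9% with the PI3K inhibitor. Without thinning these shares were 81.2% and 83.1%, 34.97% and 49.8%, and 67.0% and 71.6%.

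MYC and ODC1 were both lower under MEK inhibition when set against EGF alone. Within a condition their UMI counts showed almost no relation from cell to cell. Over the 15 groups of library and condition with 54 to 601 thinned cells, Spearman's rho between their UMI counts ran from -0.08 to 0.10. In library 2 with EGF alone at 30 h 34.3% of cells had a UMI of both, and the product of the single shares is 35.1%. With the MEK inhibitor at 30 h it was 9.15% against 9.88%, and with the PI3K inhibitor at 30 h 38.2% against 37.2%. MYC gave rho of -0.13 to 0.10 with MXI1, -0.08 to 0.21 with MXD4 and -0.08 to 0.14 with MAX over the same groups. Counts of these genes are sparse and cells share a library, so these are descriptions only. Counting noise lowers rho for such sparse counts, so low values do not show that the levels are unrelated.

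MXD4, which with MAX represses E-box genes and is known from quiescent and differentiating cells, was the gene of the 7 with a call in the same direction for both inhibitors at 30 h. It lies on chromosome 4 at 2247432 to 2262294 on the minus strand and gave 4238 UMIs. Unstimulated cells held 140.0 CPM in library 1 and 53.0 CPM in library 2, the latter from 12 UMIs. With EGF alone it was at 52.6 and 39.8 CPM at 15 h, 48.0 and 33.2 CPM at 20 h and 44.1 and 29.3 CPM at 30 h. The MEK inhibitor gave 53.2 and 45.6 CPM at 20 h and 115 and 76.8 CPM at 30 h. The PI3K inhibitor gave 97.8 and 64.4 CPM at 20 h and 119 and 99.8 CPM at 30 h. Library 1 was the higher of the libraries in all 8 conditions. The 4 highest conditions (PI3K inhibitor at 30 h, unstimulated, MEK inhibitor at 30 h and PI3K inhibitor at 20 h) overlapped in sequence, and so did the 4 lowest.

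MXD4 rose with the PI3K inhibitor by 1.00 ± 0.13 at 20 h (log2, fold change 2.00, adjusted p = 7.07e-08) and 1.61 ± 0.12 at 30 h (fold change 3.05, adjusted p = 3.69e-16). With the MEK inhibitor its log2 fold change was 0.30 at 20 h (95% interval 0.01 to 0.58, adjusted p = 0.184), and at 30 h it rose by 1.39 ± 0.12 (fold change 2.61, adjusted p = 9.92e-14). The effect differed between the times by 1.09 ± 0.19 for the MEK inhibitor (adjusted p = 5.87e-05) and by 0.61 ± 0.18 for the PI3K inhibitor (adjusted p = 0.0318), the latter in a test that called 2 of these 7 genes and 5.65% of all genes. Leaving out any of 7 of the 8 sums ended the call for the PI3K inhibitor (adjusted p from 0.0584 to 0.225), and both calls were lost without the block (adjusted p = 0.392 and 0.719), with equal weight per cell (0.275 and 0.821) and in G1-called cells (0.686 and 0.997). In cells called G1 the rises were 0.58 and 0.60 with the PI3K inhibitor at 20 h and 30 h and 0.69 with the MEK inhibitor at 30 h, all called but smaller than over all cells by more than 1.5 times on the log2 scale. In cells called S or G2/M they were 0.90, 1.08 and 1.30. The difference between the times for the PI3K inhibitor was 0.02 in G1-called cells and 0.18 in S- or G2/M-called cells (adjusted p = 0.851), neither called. The share of G1 calls given above moved with the same conditions, and MXD4 stood at 92.1 and 62.8 CPM (without TMM scaling) in G1-called cells with EGF alone at 30 h, against 28.6 and 29.2 in G2/M-called cells.

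**Figure D4:**
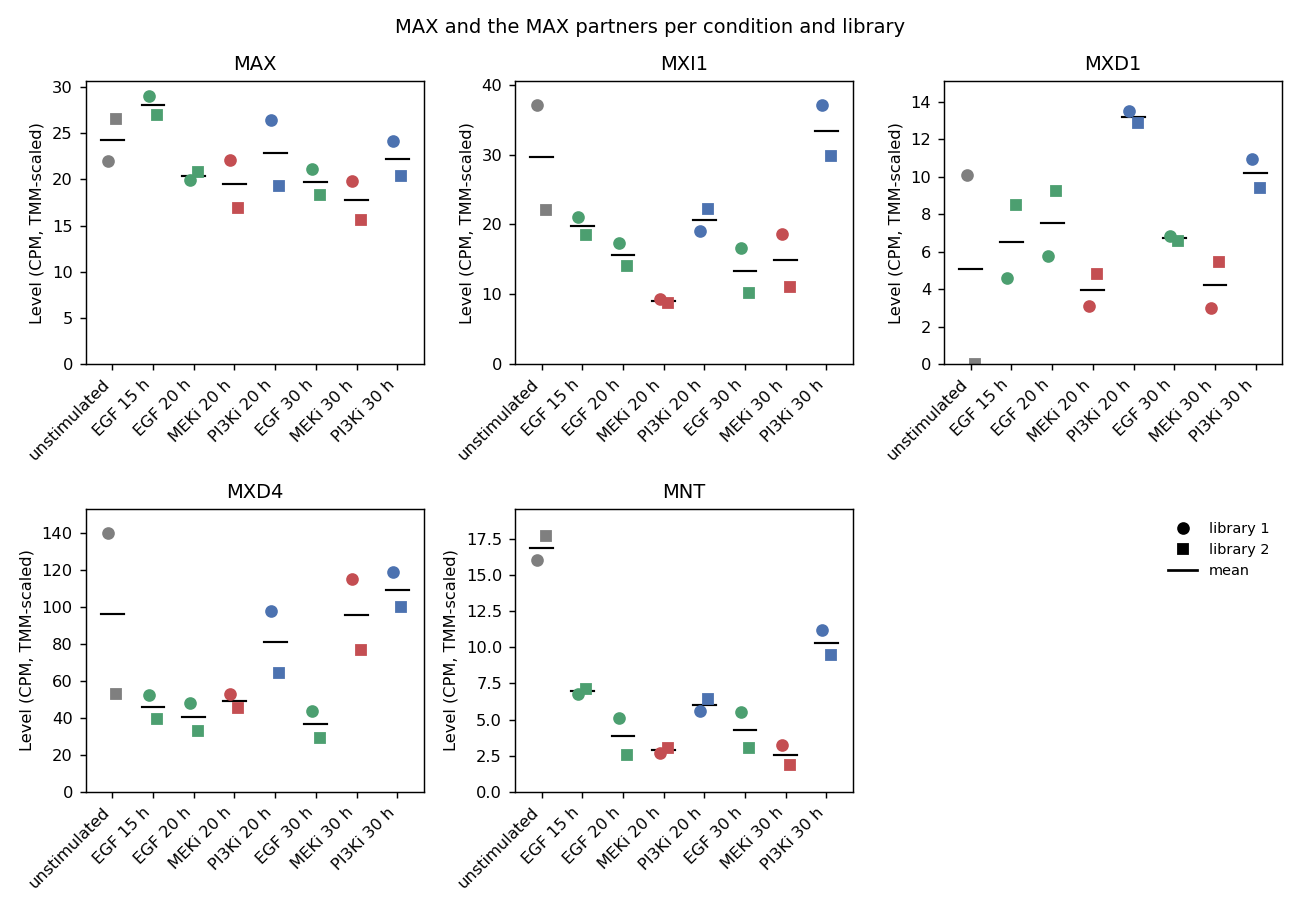
Level in CPM with TMM scaling (y axes, from 0) of MAX, MXI1, MXD1, MXD4 and MNT in each condition (x axis), library 1 as circles, library 2 as squares and the mean as a bar. MXI1 stands at 37.0 and 29.8 CPM with the PI3K inhibitor at 30 h, MXD4 is high with either inhibitor at 30 h, and MAX ranges from 15.6 to 29.02 CPM over all sums.

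MXI1, a further repressing partner of MAX, lies on chromosome 10 at 110207605 to 110287365 on the plus strand and gave 1129 UMIs. Its level was 37.1 and 22.1 CPM in unstimulated cells, 21.0 and 18.5 CPM at 15 h of EGF, 17.3 and 14.1 CPM at 20 h and 16.6 and 10.1 CPM at 30 h. With the PI3K inhibitor it stood at 19.1 and 22.3 CPM at 20 h and at 37.0 and 29.8 CPM at 30 h, the range of the unstimulated cells. With the MEK inhibitor it stood at 9.32 and 8.75 CPM at 20 h, the lowest of all conditions, and at 18.6 and 11.1 CPM at 30 h. MXI1 rose with the PI3K inhibitor at 30 h by 1.36 ± 0.17 on the log2 scale (fold change 2.56, adjusted p = 4.13e-09), and at 20 h the value was 0.34 (95% interval -0.06 to 0.75) and not called. The difference between the times was 1.01 ± 0.27 (adjusted p = 0.0125), a call lost without the sum of library 1 with EGF alone or with the PI3K inhibitor at 20 h, or that of library 2 with EGF alone at 30 h (adjusted p = 0.077, 0.413 and 0.126), and also without the block (0.408) or in DESeq2 (0.0615). In cells called S or G2/M the rise at 30 h was 0.71 and not called (adjusted p = 0.0771). The difference between the times was 1.16 in these cells (adjusted p = 0.222) and 0.61 in G1-called cells (adjusted p = 0.594), neither called. The lower level with the MEK inhibitor at 20 h was called at -0.77 ± 0.24 (adjusted p = 0.0269), but not without any 1 of the 4 sums compared (adjusted p from 0.0709 to 0.282), without the block (adjusted p = 0.187) or in DESeq2 (adjusted p = 0.093). At 30 h the MEK inhibitor gave 0.12 (95% interval -0.26 to 0.51), and it was -0.05 on library totals. Both stretches with a forkhead core shown above belong to starts of MXI1 that the summed counts do not separate.

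MXD1 and MNT were counted sparsely, with 434 and 329 UMIs in all. MXD1, an induced repressing partner of MAX on chromosome 2 (69897688 to 69942945, plus strand), overlaps SNRNP27 on the same strand. It was at 5.78 and 9.27 CPM with EGF alone at 20 h and 13.5 and 12.9 CPM with the PI3K inhibitor, a log2 fold change of 0.91 ± 0.28 (adjusted p = 0.0135). That call was lost without library 1 of either condition (adjusted p = 0.349 without EGF alone and 0.302 without the inhibitor), without the block (0.139) and in DESeq2 (0.0936). At 30 h the values were 6.86 and 6.59 CPM against 10.9 and 9.43 CPM, and the log2 fold change of 0.59 was not called (adjusted p = 0.0709). Under MEK inhibition MXD1 stood at 3.11 and 4.83 CPM at 20 h and 3.01 and 5.44 CPM at 30 h, log2 fold changes of -0.82 and -0.55 that were not called. At 15 h of EGF it was at 4.58 and 8.52 CPM, and unstimulated cells had 12 UMIs (10.1 CPM) in library 1 and 0 in library 2.

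MNT, the broadly expressed repressing partner of MAX on chromosome 17 (2384060 to 2401118, minus strand), was highest in unstimulated cells at 16.02 and 17.7 CPM, from 19 and 4 UMIs. It was at 6.79 and 7.10 CPM at 15 h of EGF, 5.14 and 2.56 CPM at 20 h and 5.54 and 3.04 CPM at 30 h. The PI3K inhibitor gave 5.62 and 6.44 CPM at 20 h and 11.2 and 9.43 CPM at 30 h, and the MEK inhibitor gave 2.72 and 3.02 CPM and 3.26 and 1.85 CPM. Only the rise with the PI3K inhibitor at 30 h was called among these 4 comparisons, at 1.32 ± 0.28 on the log2 scale (fold change 2.50, adjusted p = 0.000136). It was 0.10 in G1-called cells (adjusted p = 0.93) and 1.98 in S- or G2/M-called cells (adjusted p = 0.00059), and with equal weight per cell it was 0.81 (adjusted p = 0.214). With EGF alone at 30 h the 2 libraries held 7 and 5 MNT UMIs in G1-called cells and 9 and 11 in G2/M-called cells. The values within phases thus rest on few counts, and the difference between them was not tested. The values for the MEK inhibitor were -0.47 at 20 h and -0.77 at 30 h, with 95% intervals of -1.32 to 0.38 and -1.50 to -0.03, and that for the PI3K inhibitor at 20 h was 0.50 (-0.23 to 1.22).

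MAX, the common partner, lies on chromosome 14 at 65006174 to 65102695 on the minus strand, where FNTB and CHURC1-FNTB overlap it on the other strand, and gave 1281 UMIs. It stood at 21.9 and 26.5 CPM in unstimulated cells, 29.02 and 27.0 CPM at 15 h, 19.9 and 20.8 CPM at 20 h and 21.1 and 18.3 CPM at 30 h of EGF. Under MEK inhibition it was at 22.1 and 16.9 CPM and 19.8 and 15.6 CPM, and with the PI3K inhibitor at 26.4 and 19.3 CPM and 24.1 and 20.3 CPM, at 20 h and 30 h. All neighbours in its order overlapped except EGF at 15 h, which stood above the unstimulated cells. The log2 fold changes were -0.03 (95% interval -0.40 to 0.33) and -0.17 (-0.49 to 0.15) with the MEK inhibitor at 20 h and 30 h, and 0.23 (-0.13 to 0.58) and 0.17 (-0.15 to 0.49) with the PI3K inhibitor.

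Set directly against each other, the inhibitors separated 4 of the 7 genes at 20 h, where 21.6% of all genes were called, and 5 of the 7 at 30 h, where 41.6% were. Each of them stood lower under MEK than under PI3K inhibition. At 20 h the log2 differences were -1.70 ± 0.13 for MYC (adjusted p = 1.1e-14), -1.73 ± 0.35 for MXD1, -1.11 ± 0.25 for MXI1 and -0.70 ± 0.14 for MXD4. At 30 h they were -1.69 ± 0.11 for MYC (adjusted p = 3.27e-18), -1.44 ± 0.12 for ODC1 (adjusted p = 1.03e-14), -2.09 ± 0.30 for MNT, -1.23 ± 0.16 for MXI1 and -1.14 ± 0.27 for MXD1. MXD4 differed by -0.22 at 30 h with a 95% interval of -0.43 to -0.02, and MAX by -0.34 with an interval of -0.65 to -0.03, neither called. The call of MXD4 at 20 h was lost without the block (adjusted p = 0.139), with equal weight per cell (0.113) and in G1-called cells (0.331), that of MXI1 at 20 h in S- or G2/M-called cells (0.605), and those of MXD1 with equal weight per cell (0.458 at 20 h and 0.481 at 30 h). MXD1 at the later time was also not called in S- or G2/M-called cells (0.0578).

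EGF itself changed 5 of the 7 genes by 15 h, where 28% of all genes were called against unstimulated cells. ODC1 rose by 1.10 ± 0.21 on the log2 scale (adjusted p = 4.11e-05) and MYC by 0.42 ± 0.16 (adjusted p = 0.0351). MXD4 was lower by 1.29 ± 0.17, MNT by 1.27 ± 0.41 and MXI1 by 0.75 ± 0.27 (adjusted p = 5.89e-08, 0.0165 and 0.0339). The log2 differences in libraries 1 and 2 were 1.37 and 0.30 for ODC1, 0.48 and 0.28 for MYC, -1.40 and -0.41 for MXD4, -1.18 and -1.25 for MNT and -0.80 and -0.25 for MXI1. The library 2 values of MNT, MXI1 and MXD4 rest on few UMIs. At 15 h these numbered 5, 13 and 28, and in unstimulated cells 4, 5 and 12. All 5 calls were lost without the unstimulated sum of library 1, which leaves the 29 cells of library 2 as the lone control, with adjusted p from 0.341 to 0.806. The values without it were 0.43 for ODC1, 0.42 for MYC, -0.44 for MXD4, -1.70 for MNT and -0.39 for MXI1. Without the 29 cells all 5 remained called. Without the EGF sum of library 1 MYC, MXI1 and MNT were not called (adjusted p = 0.413, 0.481 and 0.499), and MYC was also not called without the block (0.31), in DESeq2 (0.203), without the deepest cells (0.065) or in G1-called cells (0.0541). MXI1 was not called without the block (0.173), in DESeq2 (0.0872), on library totals (0.125), without a filter (0.0738), without the deepest cells (0.057) or in G1-called cells (0.0797), and with equal weight per cell its value was -0.0281 (0.948). MNT was not called without the block (0.0645) or in G1-called cells (0.059). MXD1, with 0 UMIs in those cells, was not called and is given no fold.

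The pathway genes listed beside these 7 are other parts of the network and genes that the literature ties to MYC, and their lists were chosen with results of these data known. Of 44 tested genes described as raised by MYC, 0 were called higher and 19 lower with the MEK inhibitor at 20 h (list median log2 fold change -0.32, against 0.01 over all genes), and 0 and 39 at 30 h (median -0.72 against 0.01). Among the called genes with at least 20 CPM the largest changes at 20 h were those of the ribosome biogenesis genes RRS1 (-0.95 ± 0.14) and RRP9 (-0.94 ± 0.13) and PPAT, the entry enzyme of purine synthesis (-0.88 ± 0.17). At 30 h they were those of MYBBP1A, a nucleolar protein (-1.46 ± 0.20), BOP1, an assembly factor of the large ribosomal subunit (-1.39 ± 0.10), and RRS1 (-1.34 ± 0.12). With the PI3K inhibitor, under which MYC was not lower, 1 was higher and 25 lower at 20 h (median -0.33 against 0.00), and 4 and 30 at 30 h (median -0.48 against 0.01). RRS1 (-1.13 ± 0.14), DKC1 of the box H/ACA complex (-0.94 ± 0.11) and PPAT (-0.88 ± 0.17) changed most by the same measure at 20 h, and HSPE1, a mitochondrial chaperonin (-1.46 ± 0.09), RCC1 (-1.33 ± 0.15) and the cap-binding protein EIF4E (-1.22 ± 0.13) at 30 h. Over all genes 7.15% and 19% were called lower with the MEK inhibitor at 20 h and 30 h, and 11.9% and 20% with the PI3K inhibitor. Without the library as a block the counts of 19, 25 and 30 fell to 7, 13 and 19 and the 4 higher to 1, and with equal weight per cell the 19 fell to 7 and the 4 to 1. The count of 19 fell to 8 without library 1 of EGF alone at 20 h and to 10 without library 1 of the MEK inhibitor, and that of 25 to between 12 and 15 without either library 1 sum or library 2 of the PI3K inhibitor. In G1-called cells the count of 30 was 12, in S- or G2/M-called cells those of 25 and 30 were 14 and 19, the 4 higher became 2 without library 1 of EGF alone and 1 without library 2 of the PI3K inhibitor at 30 h, and that of 39 stayed within 1.5 times under every setting tried.

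**Figure D5:**
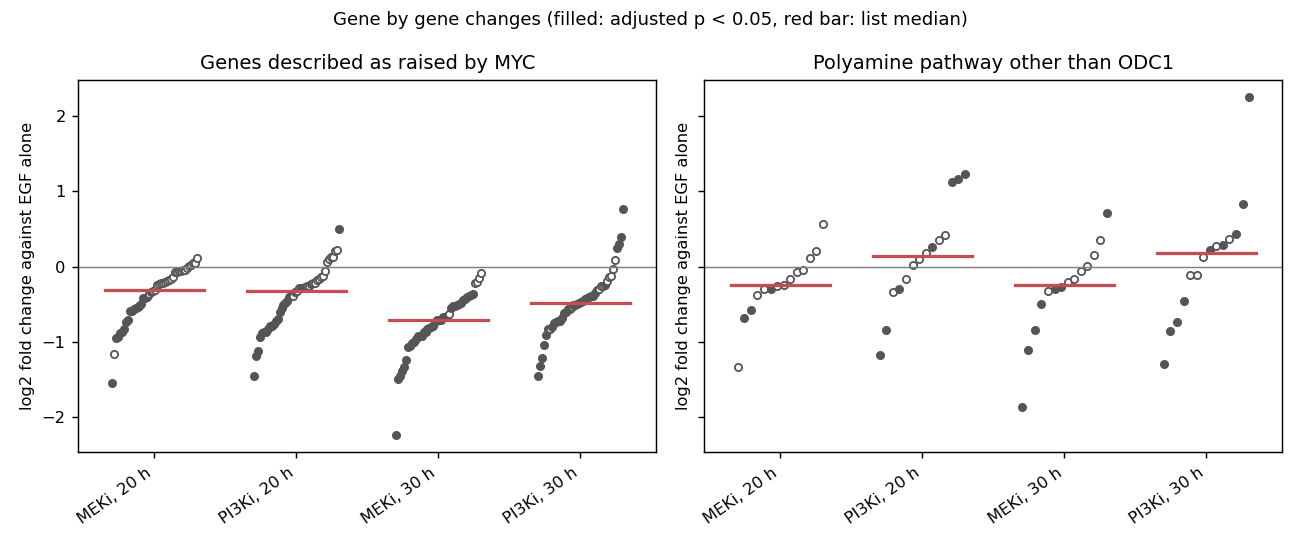
Log2 fold change against EGF alone (y axis) of each tested gene (points, sorted) of the genes described as raised by MYC (left, 44 genes) and of the polyamine pathway other than ODC1 (right, 14 genes) for the 4 inhibitor comparisons (x axis), with called genes filled and the list median as a red bar. On the left 39 genes are called lower with the MEK inhibitor at 30 h and the median is -0.72, and on the right the genes spread to both sides.

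Polyamine genes other than ODC1 spread to both sides. Of 14 tested, 0 were higher and 3 lower with the MEK inhibitor at 20 h (median -0.25 against 0.01 over all genes), and 1 and 6 at 30 h (median -0.24). In either direction 11.9% and 37.8% of all genes were called there. ARG2, the arginase that makes ornithine, the substrate of ODC1, fell by 0.69 ± 0.18 at 20 h and 1.88 ± 0.17 at 30 h. ATP13A3, a polyamine transporter, fell by 0.58 ± 0.16 and 1.12 ± 0.16, and the spermidine synthase SRM fell by 0.30 ± 0.09 and 0.85 ± 0.09. Under PI3K inhibition 4 were higher and 3 lower at 20 h (median 0.14), and 5 and 4 at 30 h (median 0.18), where 23.4% and 39.7% of all genes were called. ARG2 rose by 1.23 ± 0.14 at 20 h, and SAT1, which acetylates polyamines for export and breakdown, rose by 1.12 ± 0.15 at 20 h and 2.26 ± 0.15 at 30 h. AMD1, which makes the aminopropyl donor for spermidine, fell by 1.18 ± 0.12 and 0.86 ± 0.10, and DOHH of the hypusine pathway fell by 1.30 ± 0.15 at 30 h. SAT1 stood at 284 ± 83.9 CPM with the PI3K inhibitor at 30 h and 59.5 ± 22.5 CPM with EGF alone (SD, n = 2). Without the block the 3 lower at 20 h and 6 lower at 30 h with the MEK inhibitor became 0 and 3, and with the PI3K inhibitor the 4 and 5 higher became 1 and 2. In G1-called cells the 3 and 6 became 0 and 2, and the 4 higher with the PI3K inhibitor at 20 h became 2. With equal weight per cell the 3 lower and the 4 higher at 20 h both became 0. Leaving out a sum of the comparison moved the 3 lower genes at 20 h to 0 or 1 for 3 of the 4 MEK inhibitor and EGF sums, and the 5 higher with the PI3K inhibitor at 30 h to 2 without either EGF sum. At 20 h with the PI3K inhibitor the 4 higher became 2 without library 1 of the inhibitor or library 2 of EGF alone, and the 3 lower became 1 without library 1 of EGF alone.

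Of 10 tested genes described as lowered by MYC, 4 were higher and 3 lower with the MEK inhibitor at 20 h (median 0.39), and 5 and 0 at 30 h (median 0.46), where 11.9% and 37.8% of all genes were called in either direction with a median of 0.01. With the PI3K inhibitor it was 8 and 0 at 20 h (median 0.62) and 6 and 1 at 30 h (median 0.85), where 23.4% and 39.7% of all genes were. CLU, a secreted chaperone, rose by 2.55 ± 0.19 with the MEK inhibitor at 30 h. NDRG1, a stress and differentiation gene, was lower by 0.71 ± 0.14 with the MEK inhibitor at 20 h and higher by 0.90 ± 0.12 with the PI3K inhibitor. CCNG2, a cyclin that is also in the list of FOXO reporters, rose by 1.92 ± 0.20 with the PI3K inhibitor at 20 h. The counts of 4 and 8 higher fell to 1 and 4 without the library as a block. The 4 also fell without library 1 of EGF alone or library 2 of the MEK inhibitor. In G1-called cells the 4 and 5 higher with the MEK inhibitor became 0 and 2, and the 8 with the PI3K inhibitor became 4. With equal weight per cell the same counts became 0, 2 and 2.

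Among 4 tested further genes of the MAX and MLX network, MXD3, a partner of MAX known from proliferating cells, rose by 1.17 ± 0.15 with the MEK inhibitor at 30 h and was lower by 1.36 ± 0.21 with the PI3K inhibitor, from 24.9 ± 0.892 CPM with EGF alone (SD, n = 2) to 54.9 ± 16.98 and 9.46 ± 3.18 CPM. MLX was lower by 0.50 ± 0.16 with the MEK inhibitor at 20 h and higher by 0.41 ± 0.13 with the PI3K inhibitor at 30 h. The MXD3 calls were lost in G1-called cells and with equal weight per cell, and that with the PI3K inhibitor also in S- or G2/M-called cells. The MLX call at 20 h was lost without any of 3 of the 4 sums. That at 30 h was lost without library 1 of EGF alone or library 2 of the PI3K inhibitor. Both MLX calls were also lost without the block, with equal weight per cell, without the deepest cells and in G1-called cells. The call at 20 h was lost in DESeq2 and in S- or G2/M-called cells as well, and that at 30 h on library totals. The shares of MYC cofactors and turnover genes called at 30 h were near those of all genes, 37.8% with the MEK inhibitor and 39.7% with the PI3K inhibitor. Of 21 such genes, 2 were higher and 7 lower with the MEK inhibitor at 30 h, among them RUVBL1 (-0.75 ± 0.10) and WDR5 (-0.60 ± 0.16). With the PI3K inhibitor it was 0 and 9, among them CIP2A, which protects MYC from dephosphorylation (-2.03 ± 0.23), and the corepressor deacetylase HDAC1 (-0.62 ± 0.12). The 7 became 4 without the block, 3 with equal weight per cell or in G1-called cells, and 11 on library totals. Fewer were lower without library 2 of the MEK inhibitor. The 2 became 0 in G1-called cells, with equal weight per cell and on library totals. The 9 became 5 without the block, 1 in G1-called cells and 3 in S- or G2/M-called cells.

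Across the 8 conditions the genes most like each member were ranked among 4702 others by the lower of the libraries' Pearson r of log2 CPM. With 8 points that share libraries and depth these are descriptions. For MYC they were SH2D3A (r = 0.98 in both libraries), TNS4, ZFP36L2, PTPN12 and PTPRE, with a lower r of at least 0.92. For ODC1 they were AREG, an EGFR ligand (r = 0.91 and 0.94), RRP7A, SLC20A1, UTP6 and NT5E, with a lower r of at least 0.88. MXI1 was followed most closely by ZFP36L1, ZFPM1 and ZFP36 (0.92 and 0.93, 0.91 and 0.97, 0.90 and 0.93), MNT by JUNB, FOS and ZBTB38, and MXD4 by RPLP2, RIOK3 and RPS2. MAX was nearest to MARK3, NFAT5 and SARS, and MXD1 to MID1IP1, CHMP4C and DDX50. Ranked by Spearman's rho instead, 0 of the 5 genes named for MYC and 1 of the 5 for ODC1 were named again. Of the 3 genes named for each other member it was 0 for MXD4, 1 each for MAX and MXD1, and 2 each for MXI1 and MNT. The r of MXD1 in library 2 includes the unstimulated sum, which had 0 of its UMIs.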

How the data were processed

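Cells were labelled with sample tags, pooled, fixed in methanol and sequenced as 1 library per biological replicate, per the labels' protocols. The authors deposited whole-number UMI counts per gene and cell, a tag call for each barcode and a condition for each tag. Cell Ranger 3.0.2, Seurat and GRCh38 are named, per the submitters' processing notes. Which gene annotation and cell filter were used, and whether counting used strand, is not stated there, so reads of overlapping genes may be shared. Barcodes that the deposited calls mark as tag doublets, 56.1% and 40.2% of those listed, are not among the cells analysed, and doublets within a tag were not sought.

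Counts were summed over the cells of each library and condition (16 sums) and tested with edgeR 4.0.16 (R 4.3.3), using a filter on low counts, TMM scaling and the library as a block, with Benjamini-Hochberg adjustment over 11147 genes and a threshold of 0.05. Same-numbered sums come from 1 pooled library, and over 28 pairs of conditions their deviations correlated with a median r of 0.588 (0.281 to 0.677). Fold changes, the 95% intervals and SEs come from that fit, and values per library from CPM with a prior count of 2. With 2 libraries the fit has 7 residual degrees of freedom, to which edgeR adds a median of 43.3 from the spread over all genes, so p-values and intervals rest mostly on variance shared across genes. On simulated data for the MEK inhibitor at 30 h, true log2 changes of 0.5, 1 and 2 were recovered for 49.3%, 88.1% and 100% of 67, 67 and 66 genes. The fit called 4 of 10678 unchanged genes. The simulation gave every gene the same spread beyond counting error and left the genes lowest in count unchanged. Its rates therefore need not hold for the measured counts, where spread differs between genes and far more genes were called. Phases were called with scanpy 1.11.5 from 42 S and 52 G2/M genes. Alternatives were DESeq2 1.42.0, other scalings, no filter, each sum left out, cells of 1 phase and limma 3.58.1 with equal weight per cell (pseudocount 1 on CPM). The last of these also changes the test and has no TMM scaling, so a call lost there need not come from the weighting. Genes of a list were named when they were among the 3 largest called changes of a comparison, had the same sign in both libraries and reached 20 CPM. The genes described and the lists were chosen with earlier results of these data known.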

Additional observations from a re-analysis of the deposited data

Results flagged for a closer look

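The effect of an inhibitor differed between 20 h and 30 h by the edgeR interaction test in 4 cases. MXD4 changed more with the MEK inhibitor at 30 h, by 1.09 on the log2 scale, higher in both libraries (1.23 and 0.93). ODC1 fell further with the MEK inhibitor at 30 h, with a difference of -0.79 (-0.73 and -0.80 in the libraries). MXI1 rose more with the PI3K inhibitor at 30 h, by 1.01 (0.99 and 0.86), and MXD4 did so by 0.61 (0.40 and 0.81). None of the 4 calls held without the library as a block or with equal weight per cell, or in cells called G1. The share of cells called G1 moved between these conditions. Its part in the differences was not tested apart from the fits within phase calls. In cells called S or G2/M the PI3K inhibitor differences were 0.18 for MXD4 (adjusted p = 0.851) and 1.16 for MXI1 (adjusted p = 0.222), neither called. The calls for the MEK inhibitor were not lost there.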

How the results depend on the processing

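The library block is the pairing here, and without it MYC with the PI3K inhibitor at 30 h (0.61, adjusted p = 0.0676) and ODC1 with the MEK inhibitor at 20 h (-0.67, adjusted p = 0.161) were no longer called. The fit with the block called 3116 genes for EGF at 15 h, 1332 and 4216 for the MEK inhibitor at 20 h and 30 h, 2607 and 4428 for the PI3K inhibitor, 2410 and 4632 between the inhibitors, and 622 and 630 for the differences between times. Without it they numbered 1877 for EGF at 15 h, 342 and 2137 for the MEK inhibitor at 20 h and 30 h, 840 and 2384 for the PI3K inhibitor, 999 and 2703 between the inhibitors, and 36 and 6 for the differences between times (MEK, PI3K). With equal weight per cell the same 2 values were 0.37 and -0.70 and not called, and the numbers were 232 and 1585, 778 and 1980, 789 and 1637, and 19 and 23. DESeq2 called 779 genes for the MEK inhibitor at 20 h, and 376 and 404 for the differences between times, where leaving out the deepest cells gave 395 and 375. Cells called G1 gave 550 and 1321 for the MEK inhibitor, 1199 and 1306 for the PI3K inhibitor, 1363 between them at 20 h, and 76 and 71. Cells called S or G2/M gave 886 and 2197 for the PI3K inhibitor, 1019 and 2739 between the inhibitors, and 253 for the PI3K difference. Fewer cells enter these fits.

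ODC1 with the PI3K inhibitor at 20 h passed the test on library totals (-0.45), without a filter (-0.33) and with only the 20 h and 30 h conditions (-0.31). Values that were not called changed sign in G1-called cells for MAX (0.27, MEK inhibitor at 20 h, and -0.0682, PI3K inhibitor at 30 h), MNT (-0.17, PI3K inhibitor at 20 h), MXD1 (0.0346, MEK inhibitor at 30 h) and ODC1 (0.36, PI3K inhibitor at 30 h). In S- or G2/M-called cells they did so for MNT (0.20, MEK inhibitor at 20 h), MYC (-0.0035) and MXI1 (-0.46) with the PI3K inhibitor at 20 h, MXI1 with the MEK inhibitor at 30 h (-0.39) and ODC1 with the PI3K inhibitor at 30 h (0.0871). On library totals and with equal weight per cell the values were -0.0515 and -0.0338 for MXI1 (MEK inhibitor, 30 h) and -0.0637 and -0.0685 for MAX (PI3K inhibitor, 30 h). Without the deepest cells MAX (MEK inhibitor, 20 h) was 0.0383. The cause was not tested for any of these.

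Leaving out each sum in turn gave ranges of -0.24 to 0.092 for MAX, -0.76 to 0.0392 for MNT and -0.95 to -0.48 for ODC1 with the MEK inhibitor at 20 h, -0.0806 to 0.37 for MXI1 with it at 30 h, and -0.48 to -0.12 and -0.21 to 0.15 for ODC1 with the PI3K inhibitor at 20 h and 30 h. Called genes ran from 502 (without the unstimulated sum of library 1) to 3160 for EGF at 15 h, 522 to 1430 and 2653 to 4406 for the MEK inhibitor at 20 h and 30 h, 929 to 2766 for the PI3K inhibitor at 20 h, 1036 to 2622 between the inhibitors at 20 h, and 341 to 731 and 331 to 732 for the differences. Of 290 refits of the 30 called values under other settings 234 stayed called, 56 lost the call and 0 changed sign. Of 480 refits without a sum 454 stayed called, but most of these refits left out a sum that the comparison does not use. Every call that was lost came from leaving out a sum of the comparison itself. The 454 therefore overstates how well the calls held. Depth limits MNT and MXD1 most, with 4 to 58 and 0 to 58 UMIs in a sum.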
